A study of Mus musculus with 4 samples.

Results

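The ATP-binding cassette (ABC) genes of the mouse were followed here, without 6 transporters of bile formation, in fetal hepatoblasts and adult hepatocytes. The members were all genes on the array whose symbol is Abc with a subfamily letter from a to g, a number and an optional letter, leaving out Abcb11, Abcb4, Abcc2, Abcc3, Abcg5 and Abcg8, which carry bile constituents and conjugates out of hepatocytes. This rule used names only and no measured value, and it found 43 of the 30038 gene names on the array, carried by 82 of 41174 probes. RNA from hepatoblasts of embryonic day 13 (E13, n = 2 arrays) and from hepatocytes of mice 8 weeks old (n = 2 arrays) had been hybridised to 4 single-colour Agilent arrays. All samples came from liver of strain C57BL/6NCr, with no treatment or genetic change in the labels. How the cells were isolated, and whether animals were pooled, is not given in the sources used here. The p-values therefore reflect the variation among these 4 arrays, part or all of which may be technical.

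ABC proteins bind and hydrolyse ATP, and most of them use it to move a substrate across a membrane. Subfamily A and part of subfamily G move lipids, subfamilies B and C contain the multidrug and organic anion pumps, and subfamily D serves peroxisomes and lysosomes. Members of subfamilies E and F have no membrane domain and act on ribosomes. In the liver these proteins are known for lipoprotein assembly, for the removal of drugs and conjugates, for fatty acid import into peroxisomes and for iron handling in mitochondria.

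The array value of a probe is given as the log2 of its processed signal relative to the 75th percentile of that array. A probe entered the test if the scanner software had marked it well above background on every array of E13, of the adult or of both. Each gene was read from the brightest such probe. Arrays of one group correlated at r = 0.9906 (E13) and 0.9887 (adult), and arrays of different groups at 0.7271 to 0.742. Between 23049 and 23773 probes were well above background on the E13 arrays and between 19299 and 20039 on the adult arrays, with no saturated spot. The labelled cell types were checked against marker lists. All 7 tested hepatoblast markers, among them Afp and Dlk1, were higher in E13, with Epcam not tested, and all 8 hepatocyte markers were higher in the adult, with Cyp2e1 well above background on no E13 array. Markers of other cell types also differed between the groups. Endothelial markers were higher in the adult for 3 and in E13 for 1 of 8 tested, bile duct markers for 1 and 1 of 6, and 1 of 2 tested leukocyte markers was higher in the adult. For each of the other lists the summed signal is given, in units of the array's 75th percentile, beside some of the members, whether or not they moved with it. A change in an array signal can reflect fewer cells of a type or less RNA per cell, which cannot be told apart in these bulk samples.

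Of the 43 ABC genes, 33 were tested, and they divided in both directions. Higher signals in adult hepatocytes were called for 14 of the 33 (42.4%, against 32.1% of the 16421 genes tested), and higher signals in E13 hepatoblasts for 10 (30.3%, against 32.8%), by limma with a Benjamini-Hochberg adjusted p under 0.05 over all genes. The remaining 9 passed in neither direction. Calls in either direction thus covered 72.7% of the tested ABC genes and 64.8% of all genes tested. A call with a difference of at least 2-fold was reached by 17 ABC genes (51.5%, against 46.2%), of which 9 were higher in the adult and 8 in E13. The 2 groups did not overlap for 28 of the 33 (84.8%, against 85.8%). The median log2 fold, adult minus E13, was 0.11 over the tested ABC genes and -0.0099 over all genes tested. Setting the called genes below background in 1 group at their bounds could not move the first median, since their values stayed below it. These shares and medians are descriptions, and the family was not tested against other genes.

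All directions hold on the scale of the array's 75th percentile, and this choice matters for the smaller differences. When the arrays were scaled to 8 spike-in control probes instead, the median of all genes moved from -0.0099 to -1.24, and the counts of ABC genes turned from 14 higher in the adult and 10 in E13 to 5 and 19. The 5 genes called higher in the adult on both scales included Abcg1, Abca8a, Abcd3 and Abcb1b. Of the other 9, Abca2, Abca3, Abcb6, Abcb9, Abcf3 and Abcg2 had a fitted difference below 0 on the spike-in scale, and Abca6 and Abcc6 remained above 0 but were not called. All 10 genes called higher in E13 kept that call on the spike-in scale. That scaling moved the log2 fold of every gene by the same amount toward E13, so it gives these calls no further support. Normexp background correction brought several large differences nearer to 0 without ending the call, to 2.40 for Abcg1, -1.01 for Abcg4, -1.87 for Abcc4 and -3.68 for Abcc5.

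**Figure D1:**
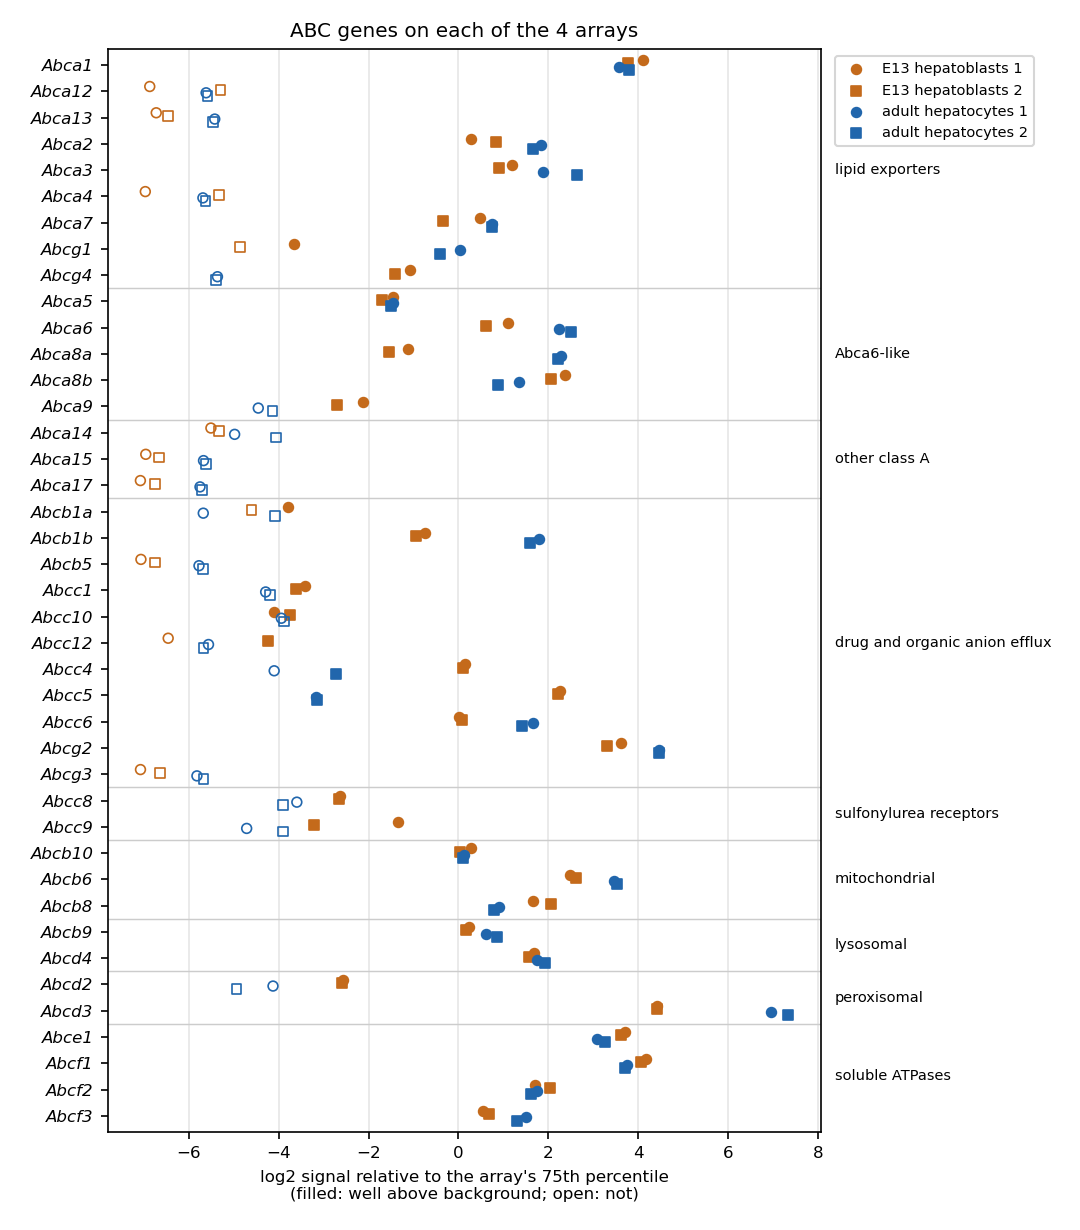
Log2 signal after subtraction of the array's 75th percentile (x axis) for 41 of the 43 ABC genes (y axis, grouped by role) on each of the 4 arrays. Orange marks are E13 hepatoblasts and blue marks adult hepatocytes, circles are replicate 1 and squares replicate 2, and open marks are not well above background. The orange and blue marks of Abcc5, Abcg4 and Abcc4 lie far apart with E13 on the right, while those of Abcg1, Abca8a, Abcd3 and Abcb1b lie apart with the adult on the right.

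Among the 9 lipid exporters, 6 were tested, of which 3 were higher in the adult, 1 was higher in E13 and 2 passed in neither direction. Abca1, which loads cholesterol and phospholipid onto apolipoprotein A-I to form HDL, read 4.11 and 3.77 on the E13 arrays and 3.58 and 3.80 on the adult arrays. Its groups overlapped, with a log2 difference of -0.25 ± 0.19 (SE, n = 2 and 2, adjusted p = 0.296). Quantile normalization moved this difference to -0.70 with an adjusted p of 0.024, and spike-in scaling to -1.49 (adjusted p = 0.00182), both toward E13. Abcg1, which passes cellular cholesterol on to HDL and is known from macrophages, read -3.67 and -4.86 in E13 and 0.03 and -0.41 in the adult. Both adult arrays lay far above both E13 arrays, of which only 1 was well above background, and the difference was 16.8-fold (log2 4.07 ± 0.45, adjusted p = 0.00175). Without E13 replicate 1 the log2 difference was 4.67 and without E13 replicate 2 it was 3.48. Macrophage markers moved the same way, with 7 of 9 tested called higher in the adult and a summed signal of 0.825 to 1.69 in E13 and 4.06 to 4.38 in the adult. Clec4f, Cd163 and Vsig4, which define resident macrophages, were well above background on no E13 array and on both adult arrays. The part of macrophage RNA in the Abcg1 difference was not tested.

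Abcg4, a close relative of Abcg1 known from brain and from megakaryocyte progenitors, differed in the opposite direction. It read -1.08 and -1.41 in E13 and -5.36 and -5.40 in the adult, where neither array was well above background. The E13 signal was therefore at least 4.62-fold higher (adjusted p = 0.000144), the bound being taken against the lowest signal well above background on the adult arrays. Megakaryocyte markers such as Pf4 and Ppbp were higher in E13 for 6 of 6 tested, with a summed signal of 21.9 to 41.0 in E13 and 0.377 to 0.387 in the adult. Their part in the Abcg4 difference was not tested.

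The Abcg4 probe is shown because its signal was well above background on the E13 arrays only. Its first 30 of 60 bases are given in lower case, 5′ to 3′, and it stands in the mouse build mm9 at chr9:44081397-44081456 on the minus strand.
Abcg4 probe: acacacctgtctatcttcttggtgggtcca
No exon or UTR annotation of that build was used here, so the part of a gene that a probe reads is given only by its position in the transcript as the array files state it, here base 3442.

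The other lipid exporters differed less. Abca2, a transporter of late endosomes and lysosomes, was 2.28-fold higher in the adult (log2 1.19, adjusted p = 0.0111). Abca3, which loads surfactant lipid into lamellar bodies of the lung, was 2.32-fold higher there (adjusted p = 0.0226), but its call was lost without either E13 array (adjusted p = 0.0619 and 0.102). Both had differences just below 0 on the spike-in scale, at -0.044 and -0.019. Abca7, a phospholipid transporter linked to phagocytosis, read 0.48 and -0.34 in E13 and 0.75 and 0.74 in the adult, and its difference of 0.68 was not called (adjusted p = 0.111). Leaving out E13 replicate 1 raised it to 1.09 (adjusted p = 0.0238).

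The cholesterol efflux list held the partners of these exporters. Of its 15 tested genes, 9 were higher in the adult, 3 in E13 and 3 passed in neither direction, a split that became 5 and 5 on the spike-in scale. Rxra, the nuclear receptor that pairs with the liver X receptors controlling Abca1 and Abcg1, was 8.18-fold higher in the adult, and Srebf1, a regulator of lipid synthesis, 3.83-fold. Soat1, which esterifies cholesterol, was well above background on no adult array and at least 41.0-fold higher in E13. Pltp, which transfers phospholipid onto HDL, differed by -0.48 and was not called (adjusted p = 0.142).

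The 5 Abca6-like genes lie side by side on chromosome 11 and alternated in direction along the chromosome. In the order of their probes, Abca8b was higher in E13, Abca8a in the adult, Abca9 in E13 and Abca6 in the adult, and Abca5 was not called. Abca8a read -1.11 and -1.55 in E13 and 2.28 and 2.21 in the adult. All 4 arrays were well above background, and the adult arrays lay 11.9-fold above E13 (log2 3.58 ± 0.20, adjusted p = 0.000286). Abca8b, linked to cholesterol efflux, read 2.37 and 2.07 in E13 and 1.34 and 0.87 in the adult, a 2.16-fold higher signal in E13 (log2 -1.11 ± 0.23, adjusted p = 0.0128). Its call was lost without E13 replicate 1 (adjusted p = 0.0686).

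Abca8a and Abca8b are named as neighbouring relatives, so the probes that told them apart are shown. The Abca8a probe and the second Abca8b probe are given by their first 30 bases, and the first Abca8b probe, which crosses an intron, by all 60. In mm9 they stand on the minus strand at chr11:109886935-109886984 (Abca8a), chr11:109814003-109814869 (Abca8b, transcript base 3045) and chr11:109797045-109797104 (Abca8b, transcript base 4841).
Abca8a probe: aggaagaggctaaccctgacatttttacct
Abca8b first probe: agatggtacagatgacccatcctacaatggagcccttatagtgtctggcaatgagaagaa
Abca8b second probe: cttctctgatggcttacaaattaccagtgg
Both Abca8b probes were called higher in E13, with log2 differences of -0.88 and -1.11, while the Abca8a probe differed by 3.58 in the other direction. Whether either probe also binds the other transcript was not tested.

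Abca9 read -2.13 and -2.71 in E13 and -4.45 and -4.14 in the adult, where it was well above background on neither array, so that E13 was at least 2.05-fold higher (adjusted p = 0.00365). Normexp correction ended this call (-0.16, adjusted p = 0.403). Abca6 read 1.10 and 0.61 in E13 and 2.25 and 2.51 in the adult, which was 2.87-fold higher (log2 1.52 ± 0.23, adjusted p = 0.00477). Both tested Abca6 probes were called the same way, with log2 differences of 2.54 and 1.52. Abca5 had nearly the same signal on all arrays, with -1.46 and -1.71 in E13 and -1.46 and -1.50 in the adult, and a difference of 0.11 ± 0.16 (adjusted p = 0.584). Mesenchymal markers, which moved with Abca9 and Abca8b, were higher in E13 for 8 of 9 tested, with a summed signal of 72.2 to 100.5 in E13 and 13.8 to 14.3 in the adult. Their part in these differences was not tested.

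**Figure D2:**
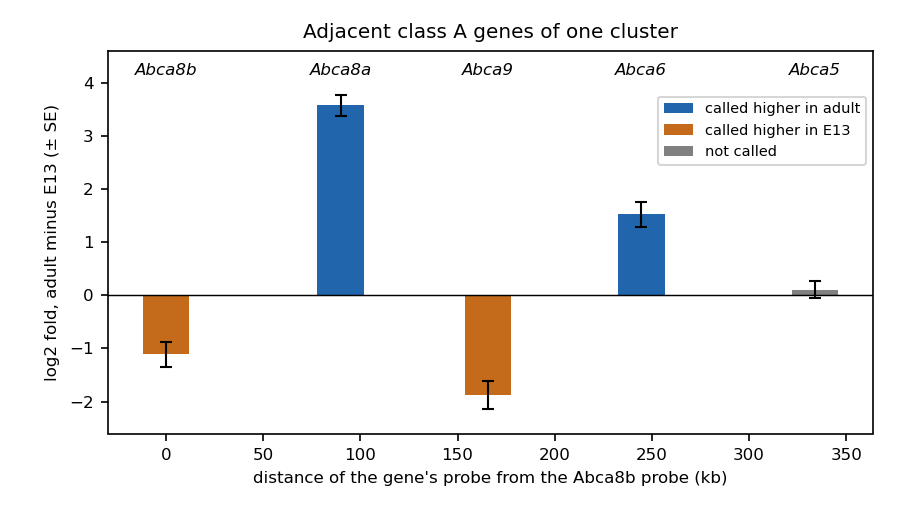
Log2 fold, adult minus E13, with its standard error (bars and error lines, y axis) for the 5 Abca6-like genes, placed by the distance of their probe from the Abca8b probe in kilobases (x axis). Bars above 0 are higher in the adult. Abca8b (-1.11) and Abca9 (a fitted value, below background in the adult) point down and Abca8a (3.58) and Abca6 (1.52) point up, with Abca5 near 0. Spike-in scaling kept the signs of the called genes but ended the call of Abca6 and turned the sign of Abca5. Normexp correction ended the call of Abca9.

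The RefSeq promoters of the strongest contrast in this cluster, Abca8a against Abca8b, are shown with the letters a motif search found in capitals. Both are the 250 bases before the annotated start in build GRCm38.p6, on the minus strand, at chr11:110095938-110096187 (Abca8a) and chr11:109995846-109996095 (Abca8b). Capitals mark CACGTG, an E-box, in Abca8a and CCGCCC, the reverse complement of the GC box GGGCGG, in Abca8b.
Abca8a promoter: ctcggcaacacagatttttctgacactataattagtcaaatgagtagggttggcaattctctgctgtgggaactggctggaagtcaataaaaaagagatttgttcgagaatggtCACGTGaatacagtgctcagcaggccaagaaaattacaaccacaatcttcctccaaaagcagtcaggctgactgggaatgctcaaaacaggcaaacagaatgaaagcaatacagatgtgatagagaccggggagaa
Abca8b promoter: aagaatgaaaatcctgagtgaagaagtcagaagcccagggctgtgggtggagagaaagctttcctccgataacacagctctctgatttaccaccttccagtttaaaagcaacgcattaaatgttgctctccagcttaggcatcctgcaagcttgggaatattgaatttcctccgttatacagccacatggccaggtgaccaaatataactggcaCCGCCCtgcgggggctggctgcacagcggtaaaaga
The Abca8a stretch held 4 CpG dinucleotides and the Abca8b stretch 6, against a median of 6 over 27025 genes. A match of letters is a description of the sequence and shows no binding.

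Drug and organic anion efflux genes numbered 11, of which 7 were tested. They had no common direction, with 3 higher in the adult, 3 higher in E13 and 1 passing in neither direction. Abcb1a and Abcb1b are the duplicated P-glycoprotein genes of the mouse, which expel hydrophobic drugs. Abcb1b read -0.74 and -0.94 in E13 and 1.79 and 1.58 in the adult. Its groups lay clearly apart, and the adult signal was 5.76-fold higher (log2 2.53 ± 0.17, adjusted p = 0.000437). Abcb1a read -3.80 and -4.60 in E13 and -5.68 and -4.09 in the adult, was well above background on 1 E13 array only and was not tested.

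The 3 Abcb1b probes did not give the same picture, so they are shown with the Abcb1a probe. All lie on the plus strand of chromosome 5 in mm9, the Abcb1a probe at chr5:8747979-8748038 and the Abcb1b probes at chr5:8827445-8827707, chr5:8861441-8861500 and chr5:8865925-8865984. The Abcb1b probe at transcript base 2152 crosses an intron and is printed whole, and the others by their first 30 bases.
Abcb1a probe: atatattgtcccaactgggatattgtacat
Abcb1b probe at base 2152: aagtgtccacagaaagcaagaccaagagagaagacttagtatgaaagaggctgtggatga
Abcb1b probe at base 3442: aataaagcaactgaatgtccagtggctccg
Abcb1b probe at base 3954: tccaggctggagcaaagcgctcatgagctg
The adult increase of Abcb1b rested on the probe at base 3442 alone, and the mean of the tested probes differed by 1.13 (adjusted p = 0.00767). The probe at base 3954 read -3.06 and -3.75 in E13 and -3.88 and -3.47 in the adult, where it was not well above background, and its difference of -0.27 was not called (adjusted p = 0.453 in the fit over all tested probes). The probe at base 2152 was well above background on none of the 4 arrays. Duplicated genes such as these can share signal on an array, and binding to the other copy was not tested.

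Of the 5 tested efflux genes of subfamily C, Abcc1, Abcc4 and Abcc5 were called higher in E13, Abcc6 in the adult and Abcc10 in neither direction. Abcc5, which exports cyclic nucleotides and folates, had the largest difference of the 33 tested members. It read 2.26 and 2.22 in E13 and -3.17 and -3.15 in the adult, with all arrays well above background and a 42.3-fold higher signal in E13 (log2 -5.40 ± 0.14, adjusted p = 5.98e-05). Abcc4, which exports cyclic nucleotides and conjugated bile acids and is abundant in platelet granules, read 0.14 and 0.09 in E13 and -4.10 and -2.71 in the adult. Only 1 adult array was well above background, and the E13 signal was 11.5-fold higher (log2 -3.52 ± 0.48, adjusted p = 0.00346). The difference was -4.22 without adult replicate 2 and -2.83 without adult replicate 1. Abcc1, an exporter of glutathione conjugates, read -3.42 and -3.62 in E13 and -4.29 and -4.19 in the adult, where it was not well above background. It was called higher in E13 (adjusted p = 0.0146) with no fold that the background allows, and the call was lost without E13 replicate 1 (adjusted p = 0.0909). That reading is of the brightest probe, while at the probe of transcript base 5512 E13 was at least 1.12-fold higher. All 3 probes of Abcc1 were called higher in E13. Normexp background correction, however, turned the sign of the difference at the brightest probe (0.15, adjusted p = 0.404). The megakaryocyte and mesenchymal marker sums given above were also higher in E13, and their part in the differences of Abcc1, Abcc4 and Abcc5 was not tested.

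Probes of Abcc5 and Abcc4 are shown because each gene was read at several places and all gave the same direction. They lie on the minus strand in mm9, those of Abcc5 at chr16:20400837-20400896 (transcript base 1113 of another transcript record than the other probes), chr16:20332412-20332471 (base 4715) and chr16:20331568-20331627 (base 5559), and those of Abcc4 at chr14:118883515-118883574 (base 4068) and chr14:118882104-118882163 (base 5479). Each line gives the first 30 of 60 bases.
Abcc5 probe at base 1113: gctctttgaacatggtatctttaaatatat
Abcc5 probe at base 4715: ttgttcttaattgcactcttaagaggttca
Abcc5 probe at base 5559: gtagaagttttttgtactgtaaagagacct
Abcc4 probe at base 4068: tatttgaaacagcattgtgaccaccacgac
Abcc4 probe at base 5479: gccagtaaatgatgtagattcgtcctttat
The Abcc5 probes at bases 1113 and 4715 were below background on both adult arrays, and E13 was at least 1.73-fold and 6.85-fold higher there, while the probe at base 5559 gave the 42.3-fold difference. The Abcc4 probe at base 4068 was below background on both adult arrays, with E13 at least 1.55-fold higher.

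Abcc6, a hepatocyte protein needed for ATP release and known from pseudoxanthoma elasticum, was the only one of the 7 tested subfamily C members called higher in the adult. It read 0.02 and 0.08 in E13 and 1.65 and 1.40 in the adult, a 2.78-fold difference (log2 1.48 ± 0.16, adjusted p = 0.00178) that was not called on the spike-in scale (0.24, adjusted p = 0.314). Abcg2, the breast cancer resistance protein, which exports urate, porphyrins and drugs, read 3.63 and 3.31 in E13 and 4.46 on both adult arrays. The adult signal was 1.98-fold higher (log2 0.99 ± 0.17, adjusted p = 0.00753), with both probes called, but the difference fell to 0.52 under quantile normalization (adjusted p = 0.0523) and to -0.25 on the spike-in scale (adjusted p = 0.369). Abcc10 read -4.11 and -3.75 in E13 and -3.94 and -3.87 in the adult, with overlapping groups and an adjusted p of 0.925. It was called higher in the adult with normexp correction (0.58, adjusted p = 0.0126) and higher in E13 on the spike-in scale (-1.21, adjusted p = 0.0015). Over the members of subfamily C, 7 genes were tested, of which 1 was called in the adult and 4 in E13. The rule left out Abcc2 and Abcc3 of this subfamily, which were 2.51-fold and 139-fold higher in the adult.

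The xenobiotic regulators listed with the pumps had 4 of 9 genes called higher in the adult and 1 in E13, which became 1 and 4 on the spike-in scale. Nr1i3, the constitutive androstane receptor, was 23.7-fold higher in the adult and Ppara, the fatty acid receptor, 4.50-fold. Hif1a, the hypoxia factor, was 1.65-fold higher in E13. Nr1i2, the pregnane X receptor that controls P-glycoprotein genes, read 1.47 and 1.39 in E13 and 1.45 and 2.52 in the adult and was not called (adjusted p = 0.255).

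Sulfonylurea receptors do not pump but regulate ATP-sensitive potassium channels. Abcc8, known from the pancreatic beta cell, read -2.63 and -2.66 in E13 and -3.60 and -3.91 in the adult, with no adult array well above background, so that E13 was at least 1.75-fold higher (adjusted p = 0.00525). Normexp correction turned its difference to 0.18 (adjusted p = 0.366). Abcc9, the receptor of muscle and vessel walls, read -1.33 and -3.22 in E13 and -4.71 and -3.90 in the adult. Its E13 arrays lay 1.89 apart, and the difference of -2.03 ± 0.70 was not called (adjusted p = 0.0562), though without E13 replicate 2 it was -2.97 (adjusted p = 0.0111). Its second tested probe was called higher in E13 (adjusted p = 0.0269 in the fit over all tested probes), with no adult array above background. Kcnj8, the channel pore that pairs with Abcc9, read -0.13 and -1.26 in E13 and -2.72 and -2.47 in the adult and was 3.73-fold higher in E13 (adjusted p = 0.0142), while Kcnj11, the pore of Abcc8, was not above background. Summed mesenchymal signal was 100.5 on E13 array 1, where Abcc9 and Kcnj8 were higher, and 72.2 on E13 array 2. Erythroid (201.5 and 49.9), megakaryocyte (41.0 and 21.9), endothelial and macrophage sums were also higher on E13 array 1. Those of bile duct, leukocyte, hepatoblast and hepatocyte markers were lower there. The part of RNA from any of these cell types in the Abcc9 and Kcnj8 signals was not tested.

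The 4 mitochondrial transporters were detected on every array and differed by at most 2.01-fold. Abcb6, a porphyrin transporter, read 2.48 and 2.63 in E13 and 3.47 and 3.53 in the adult, 1.93-fold higher in the adult (log2 0.95 ± 0.15, adjusted p = 0.00531), with a spike-in difference of -0.29. Abcb8 went the other way and read 1.67 and 2.05 in E13 and 0.91 and 0.79 in the adult, 2.01-fold higher in E13 (log2 -1.01 ± 0.19, adjusted p = 0.00985, and 0.0512 without E13 replicate 2). Abcb10, an inner membrane transporter known for its part in haem synthesis of red cell precursors, read 0.28 and 0.04 in E13 and 0.12 and 0.10 in the adult. These groups overlapped (log2 -0.049 ± 0.16, adjusted p = 0.803), and the spike-in difference was -1.28 (adjusted p = 0.00233). Erythroid markers were higher in E13 for 6 of 10 tested and in the adult for 1, Alas2, with a summed signal of 49.9 to 201.5 in E13 and 23.1 to 29.9 in the adult. Their part in the Abcb10 and Abcb6 signals was not tested.

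Of 15 tested genes of iron-sulfur cluster assembly, in the same organelle and in the cytosol, 8 were higher in the adult, 3 in E13 and 4 passed in neither direction. Iscu, the assembly scaffold, was 3.41-fold and Nubp2, a cytosolic assembly factor, 2.06-fold higher in the adult, and Fdxr, the reductase that supplies electrons, was 2.91-fold higher in E13. The adult majority depended on the scaling, with counts of 3 and 5 after quantile normalization and 1 and 11 on the spike-in scale, but 6 and 3 with the percentile taken over detected probes.

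Lysosomal Abcb9, a peptide transporter, read 0.24 and 0.18 in E13 and 0.62 and 0.86 in the adult and was 1.44-fold higher there (adjusted p = 0.0399), but it lost this call without any one of E13 replicate 1, E13 replicate 2 and adult replicate 2 (adjusted p = 0.135, 0.168 and 0.0984) and was called higher in E13 on the spike-in scale (-0.71, adjusted p = 0.0205). Abcd4, which releases cobalamin from lysosomes, read 1.68 and 1.57 in E13 and 1.75 and 1.93 in the adult, and its difference of 0.22 was not called (adjusted p = 0.269, and -1.02 on the spike-in scale with an adjusted p of 0.00478).

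Peroxisomal transporters of subfamily D differed in both directions. Abcd3, which brings branched fatty acids and bile acid precursors into the peroxisome, read 4.42 and 4.41 in E13 and 6.96 and 7.34 in the adult. Both adult arrays lay far above both E13 arrays, 6.67-fold higher (log2 2.74 ± 0.19, adjusted p = 0.000468). Its relative Abcd2, an importer of very long chain fatty acids, read -2.57 and -2.59 in E13 and -4.13 and -4.94 in the adult, where neither array was well above background, so that E13 was at least 1.83-fold higher (adjusted p = 0.00516). Spike-in scaling, which moved every difference toward E13, kept both calls and so bears on Abcd3 only. Normexp correction left Abcd2 with a difference of 0.044 (adjusted p = 0.827).

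The Abcd3 and Abcd2 probes are shown as the peroxisomal members called in opposite directions. On the minus strand of mm9 the Abcd3 probes lie at chr3:121476976-121477115 (base 1290), chr3:121475242-121476923 (base 1402) and chr3:121461892-121461951 (base 3275), and the Abcd2 probes at chr15:91005118-91008671 (base 1692) and chr15:90976565-90976624 (base 5217). Those that cross an intron are printed whole, the last of each gene by its first 30 bases.
Abcd3 probe at base 1290: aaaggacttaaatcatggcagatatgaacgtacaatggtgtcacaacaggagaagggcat
Abcd3 probe at base 1402: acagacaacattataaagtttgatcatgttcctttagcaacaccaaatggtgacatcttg
Abcd3 probe at base 3275: ctggctaccaagataaccctgatgtattga
Abcd2 probe at base 1692: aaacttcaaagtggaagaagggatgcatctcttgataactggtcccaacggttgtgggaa
Abcd2 probe at base 5217: caaggaaaatgaagtatagctccggctatc
The 3 Abcd3 probes were called higher in the adult, with log2 differences of 2.08, 2.21 and 2.74, and both Abcd2 probes higher in E13, where the adult signal was below background at both.

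Peroxisome biogenesis genes, whose products build the organelle that these transporters serve, were higher in the adult for 11 of 14 tested, higher in E13 for 1 and in neither direction for 2, counts that became 2 and 4 on the spike-in scale. Pex11a, which drives peroxisome proliferation, was 23.4-fold and Pex16, a membrane assembly factor, 5.11-fold higher in the adult. Pex10, a ubiquitin ligase of the import machinery, was 1.54-fold higher in E13.

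The soluble ATPases were well above background on all 4 arrays and differed by at most 1.73-fold. Abce1, which splits ribosomes after termination, read 3.71 and 3.62 in E13 and 3.08 and 3.26 in the adult. E13 was 1.41-fold higher (log2 -0.50 ± 0.15, adjusted p = 0.0413), a call lost without either E13 array or without adult replicate 1 (adjusted p = 0.101 to 0.184). Abcf3, a cytosolic protein linked to antiviral defence, was 1.73-fold higher in the adult (adjusted p = 0.0119), a call lost without either E13 array (adjusted p = 0.0751 and 0.0513), with -0.44 on the spike-in scale. Abcf1, a translation initiation factor, read 4.18 and 4.07 in E13 and 3.76 and 3.71 in the adult and just missed the threshold (log2 -0.40, adjusted p = 0.0659). It was called higher in E13 under quantile normalization (-0.89, adjusted p = 0.00653). Abcf2 differed by -0.20 with overlapping groups (adjusted p = 0.376). In the list of ribosome recycling and translation initiation, 6 of 15 genes were higher in E13 and 3 in the adult, while on the spike-in scale 14 of the 15 were higher in E13. Eif2ak4, the amino acid sensing kinase, was 4.53-fold and Eif2s2, an initiation factor subunit, 2.22-fold higher in E13. Hbs1l, a partner of ribosome rescue, was 2.62-fold higher in the adult at its brightest probe. Of its 4 tested probes, 3 were called higher in the adult and 1 in E13. Etf1, the release factor, differed by -0.29 at its brightest probe and was not called (adjusted p = 0.159). Among its 3 tested probes, 2 were called higher in E13.

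**Figure D3:**
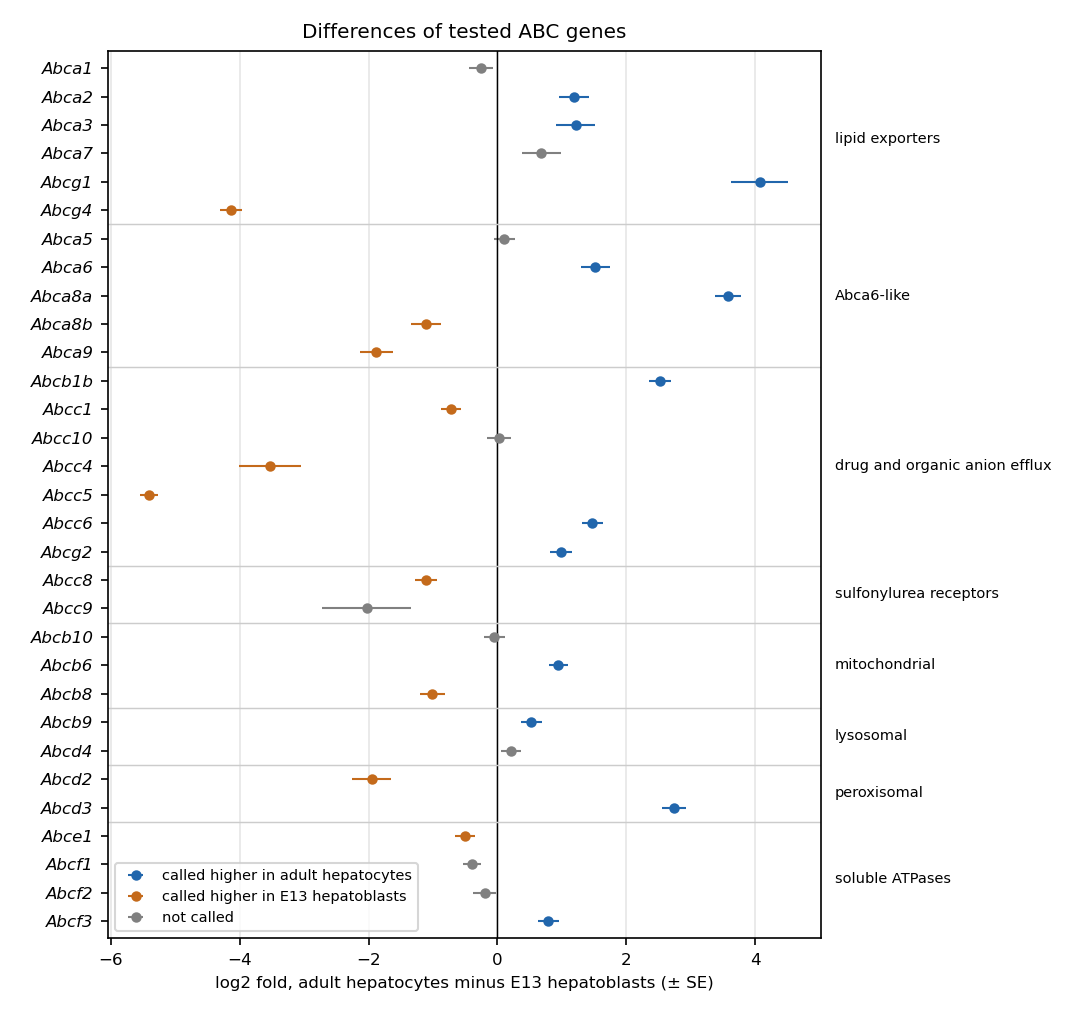
Log2 fold, adult minus E13, with its standard error (x axis) for 31 of the 33 tested ABC genes (y axis, by role). Blue marks were called higher in the adult (12 shown), orange in E13 (10) and grey in neither (9), at the array's 75th percentile as scale. Spike-in scaling turns the counts over all 33 from 14 and 10 to 5 and 19. Fitted values are plotted also for the 7 genes on no adult array above background, among them Abcg4, where only a bound can be read. Of genes detected on all 4 arrays, Abcc5 (-5.40) lies farthest left and Abca8a (3.58) farthest right.

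Detection itself was uneven. Well above background on all 4 arrays were 24 of the 33 tested ABC genes. On no adult array were 7 of them, namely Abca9, Abcc1, Abcc8, Abcc9, Abcc10, Abcd2 and Abcg4 (21.2%, against 14.2% of all genes tested), and on no E13 array was 0 of 33 (0%, against 2.69%). The retina gene Abca4, the skin gene Abca12, and Abca13, Abca14, Abca15, Abca17, Abcb5 and Abcg3 had no probe well above background on any array. Abcb1a and Abcc12 passed on 1 E13 array each. These 10 genes were not tested, and their signals give only an upper bound. Signals at background read higher in the adult on this scale, such as Abca17 with -7.08 and -6.76 in E13 and -5.75 and -5.70 in the adult. Of the members with no probe well above background, only Abca4 and Abca12 had overlapping groups. Abcc10 passed on both E13 arrays and on neither adult array, with a log2 difference of 0.02. A dim gene of equal relative level could thus pass in E13 only, and the part of this in the counts above was not tested. Among the tested members, 25 of 33 read higher on E13 array 1 than on E13 array 2, with a median gap of 0.11, while the median gap over all genes tested was -0.016.

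Where several probes of a gene were tested, they seldom disagreed in call. Of the 19 ABC genes with more than 1 tested probe, 14 had the same call on all of them, and 0 had probes called in opposite directions. Abcb1b, Abcc9, Abce1 and Abcf3 were among those with 1 probe called and 1 not. Sizes could not be compared where the adult signal was below background, as at all 3 probes of Abcc1 and 2 of Abcc5.

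**Figure D4:**
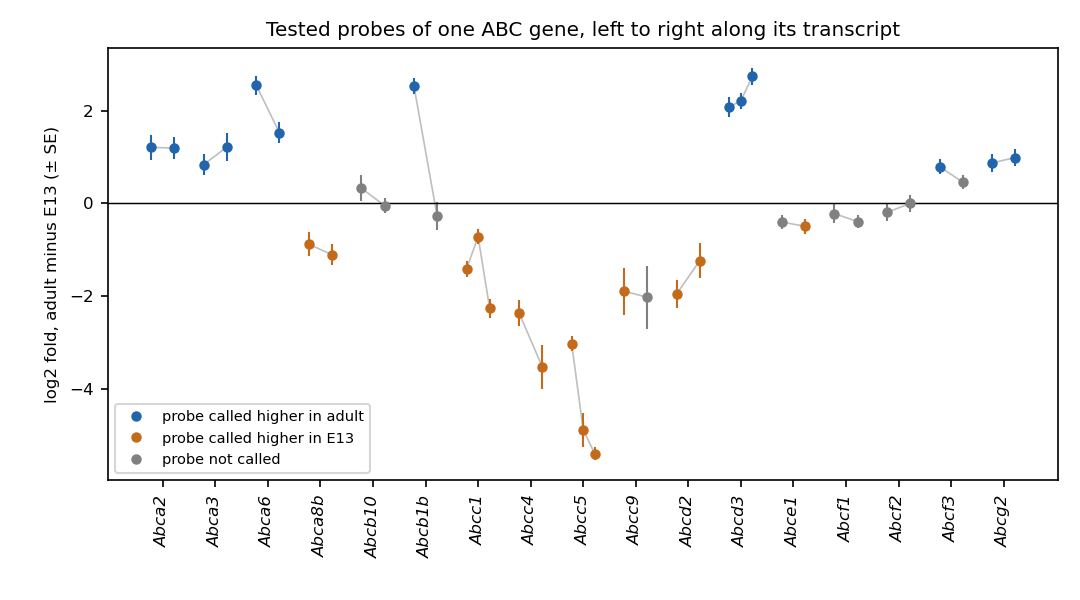
Log2 fold, adult minus E13, with its standard error (y axis) for the tested probes of 17 of the 19 ABC genes with more than 1, ordered within a gene along the transcript (x axis). Blue probes were called higher in the adult, orange in E13 and grey in neither. The Abcb1b probes fall apart (2.53 and -0.27), while the 3 probes of Abcd3 lie together above 0 and those of Abcc5 and Abcc1 below 0, except that normexp correction turned the sign of the brightest Abcc1 probe.

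Some neighbouring ABC genes were called in opposite directions. Only members next to each other in the order of their probes were paired. Within 250 kb, a limit chosen after the values were seen, lay 10 such pairs, and both genes were tested in 7. Of these adjacent pairs, 5 were called in opposite directions and 0 in the same direction. Beside the 3 pairs inside the chromosome 11 cluster (distances of 75.8 to 89.8 kb) they were Abcc5 (E13) with Abcf3 (adult), 228.2 kb apart on chromosome 16, and Abcc6 (adult) with Abcc8 (E13), 124.9 kb apart on chromosome 7. The 3 cluster pairs share genes. Members of the cluster that are not adjacent were not paired, such as Abca8b with Abca9 (both E13) and Abca8a with Abca6 (both adult). The ABC genes left out by the rule were not paired either. Among them are Abcb4, near Abcb1b on chromosome 5, and Abcg5 and Abcg8, near each other on chromosome 17. These neighbours, Abcb1b included, were all called higher in the adult, so the count of 0 holds for pairs of members only. On the spike-in scale Abcf3 was no longer higher in the adult and Abca6 and Abcc6 were not called. With normexp correction neither Abca9 nor Abcc8 was called, which leaves the pairs Abca8b with Abca8a and Abcc5 with Abcf3. The share of opposite calls among neighbours of all genes was not computed.

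RefSeq promoters of GRCm38.p6, taken as the 250 bases before the start, were on hand for 32 of the 43 members. The GC box GGGCGG, searched on both strands like all motifs here, occurred in 16 of these 32 genes, among them Abca1, Abcb1b and Abcg2, and in 32.7% of 32851 promoters. CACGTG occurred in 5 (15.6%, against 6.02%), namely Abca1, Abca8a, Abca15, Abcc4 and Abcf1. CCAAT occurred in 9 genes (28.1%, against 33.8%), TATAAA in 3 (9.38%, against 12.4%) and the nuclear receptor element core AGGTCA in 3 (9.38%, against 14.0%). The direct repeat of this core that liver X receptors bind was found, with no mismatch allowed, in 0 members and in 0.0152% of all promoters. Median CpG counts were 17 for the 9 genes higher in the adult and 17 for the 5 higher in E13, 15 for 8 uncalled genes and 7 for the 10 untested ones, against 6 over 27025 genes. The genes called in the 2 directions thus had the same median, and that of the untested genes lay nearer to that of all genes. A gene with several annotated starts counts once for a motif found at any of them, which raises its chance of a match over a single promoter.

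The other ABC proteins on the array, measured in the same way, were all higher in the adult. This held for 8 of 8 tested genes and for all 6 left out by the rule, with Abcg5 199-fold and Abcc3 139-fold higher, a sterol exporter subunit and a basolateral conjugate exporter, and for Tap1 (15.6-fold) and Tap2 (18.3-fold), the antigen peptide transporters. Tap1 was well above background on only 1 of the 2 E13 arrays. Cftr was not tested. Scaling to the spike-in probes left 7 of the 8 called. None of the 14 ABC genes called higher in the adult among the members exceeded 16.8-fold, while 10 members were higher in E13 and none of these 8 was. The difference in counts between the 2 sets was not tested.

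**Figure D5:**
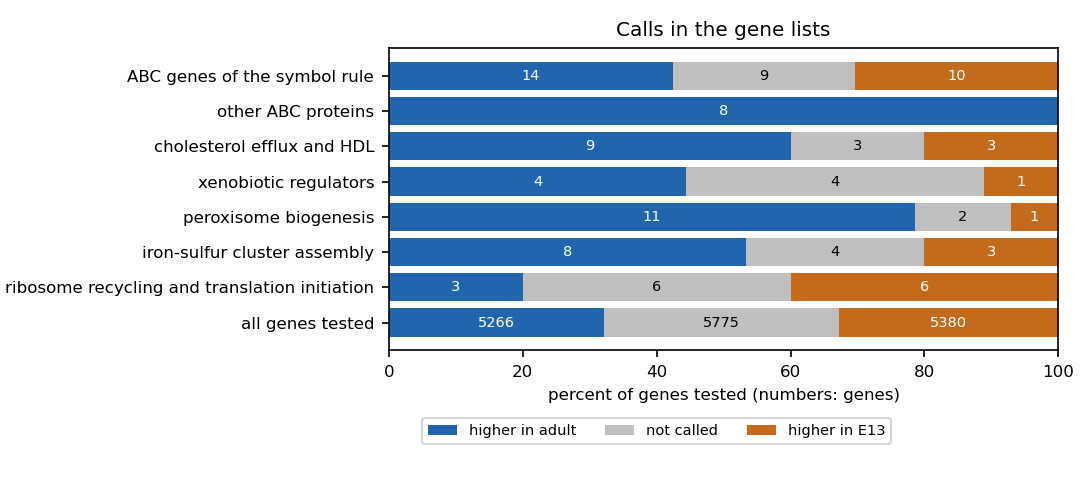
Percent of tested genes (x axis) called higher in the adult (blue), in neither direction (grey) and higher in E13 (orange) for the ABC members, the gene lists beside them and all genes tested (y axis), with the number of genes printed in each segment. The members (14, 9 and 10) lie nearer to all genes than the other ABC proteins (8, 0 and 0) do, at the 75th percentile as scale. Spike-in scaling turns the member counts to 5 and 19 and gives E13 the larger count for iron-sulfur, peroxisome and xenobiotic genes.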

How the data were processed

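RNA of E13 hepatoblasts and adult hepatocytes was measured on 4 single-colour arrays, grouped by the labels' titles. The deposited intensity values were made, per the file headers, by Agilent Feature Extraction 10.7.3.1 with background subtraction and detrending within each array, with no scaling between arrays, and placed probes on mm9. All 4 arrays shared 1 slide and 1 scan time. The authors' deposited log2 values equalled these log2 intensities minus the array's 75th percentile (r = 1).

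Spots of a probe were averaged, and 1639 control spots and 18 probes marked as outliers were left out. Genes were tested in R 4.3.3 with limma 3.58.1 (lmFit, eBayes, 2 residual and 2.55 prior degrees of freedom) over 16421 genes, two-sided, with Benjamini-Hochberg adjustment and a threshold of 0.05. The steps were tested on simulated data. Log2 folds had a median standard error of 0.182, and the number of arrays limits this precision. A gene below background on both arrays of a group is given as "at least N-fold" where the bound is above 0. Of 43 members, 42 carried a RefSeq accession, and all 42 matched their symbol.

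Members and lists were chosen with earlier results of these data known. Named with values were the members reported, those on every array being the 4 largest called differences per direction and 8 further members set by name (others added after their values were seen), and of each list the 2 largest called genes of the more frequent direction, 1 of the other and, where reported, the first uncalled. Values of a few genes and 1 probe are not reported here. Alternatives comprised background correction, scaling, filters, probe choice, thresholds, blocks and left-out arrays.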

Additional observations from a re-analysis of the deposited data

How the results depend on the processing

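Against 14 members called higher in the adult, 10 in E13 and a median log2 fold of 0.11, spike-in scaling gave 5, 19 and -1.13, with 20.8% of member calls in the adult direction in place of 58.3%. Requiring all 4 arrays above background gave 5 in E13 and a median of 0.69 among 24 genes, no filter a median of 0.49 and the percentile over detected probes a median of -0.067. Both a 2-fold minimum and an adjusted p under 0.01 left 9 in the adult. Leaving out 1 array at a time gave 10 to 14 in the adult, 7 to 10 in E13 and medians of 0.083 to 0.23. The counts under the other settings stayed within 1.5 times.

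Signs turned under normexp correction for Abcc1 (0.15), Abcc8 (0.18) and Abcd2 (0.044), under normexp with quantile normalization for Abcc10 (-0.11), over detected probes for Abca5 (-0.067) and Abcc10 (-0.15), and over the mean of probes for Abcb10 (0.14). On the spike-in scale they turned for Abca2 (-0.044), Abca3 (-0.019), Abca5 (-1.13), Abca7 (-0.55), Abcb6 (-0.29), Abcb9 (-0.71), Abcc10 (-1.21), Abcd4 (-1.02), Abcf3 (-0.44) and Abcg2 (-0.25). With 1 array left out Abcb10 ranged from -0.17 to 0.073, Abcc10 from -0.16 to 0.20 and Abca5 from -0.015 to 0.23. Spike-in scaling moved every log2 fold by the same amount toward E13, so the signs it turned were those of adult differences smaller than this shift. The cause of the other turns was not tested.

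The replicate numbers did not pair the samples (correlation of same-number deviations -0.156). A replicate block gave 13 and 9 calls, losing Abcb9 (adjusted p = 0.0962) and Abce1 (0.108), and the crossed block, added after seeing the data, 14 and 11. Of the list counts, those of iron-sulfur genes (8 and 3) were 3 and 5 after quantile normalization and 5 and 6 with normexp added, and those of ribosome genes (3 and 6) were 1 and 11 in the last setting. A slide or scan block could not be fitted with 1 slide and 1 scan time, and with no saturated spot there was nothing to leave out.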
